A study of Mus musculus with 6 samples.

Results

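The genes described here mark the vessels of the heart or act on them: 41 genes of blood endothelium, endocardium and lymphatic vessels, with the VEGF, angiopoietin and apelin genes, out of 24404 gene rows in the count table. They were chosen by symbol, all 41 were found, and all 41 had enough counts to be tested. The samples are mouse hearts 5 weeks after transaortic constriction, surgery in which a tie on the aortic arch makes the left ventricle pump against a raised pressure. The WT-TAC group has 3 wild-type samples and the KO-TAC group has 3 samples of genotype miR-204-/-, and both groups had the operation. No strain, sex or age is given in the sources used here, nor is the cell type or the construct behind the deletion, and no heart without the operation was analysed here. The number of animals behind a sample is not given, so p-values measure only the spread between these samples, which may be technical.

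Endothelial cells line every vessel and are held together by junction proteins such as VE-cadherin and claudin-5. VEGF-A, made by cardiac myocytes among other cells, acts on them through the receptors Kdr and Flt1, and angiopoietins act through Tek, with Tie1 as a partner receptor. The endocardium, which lines the heart's chambers, shares many endothelial genes and has some of its own, such as Nrg1. Lymphatic vessels depend on Prox1 and on VEGF-C acting through Flt4. In a pressure-loaded heart the growth of capillaries has to keep pace with the growth of the myocytes.

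MiR-204-5p is the mature RNA of the gene that the KO-TAC genotype names as deleted. It is shown first because its seed, bases 2 to 8 from the 5′ end (in capitals), sets which transcripts it can pair with. The mature sequence, from RefSeq on GRCm38.p6, lies on chromosome 19 from 22750610 to 22750631 on the plus strand.
mmu-miR-204-5p: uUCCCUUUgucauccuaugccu
The matching letters in a transcript are AAAGGGA. Of the 41 genes, 10 had them in the longest annotated 3′ UTR of a protein-coding transcript (24.4%), against 1992 of 11688 tested genes with such a UTR (17.0%). In 4 genes an A follows, which makes the longer 8mer match: Cav1, Emcn, Vegfc and Angpt1. The other 6 were Cdh5, Flt1, Cgnl1, Mmrn1, Apln and Aplnr. A match describes the letters only and does not show that the microRNA binds there.

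The 4 longer matches and those of the receptors Flt1 and Aplnr are shown with 11 bases on each side, 5′ to 3′ on the transcript's strand, the match in capitals. They were read from GENCODE M21 transcripts of GRCm38.
Cav1, chr6:17339809-17339815, plus strand: tgatgtcatacAAAGGGAagagattcagg
Emcn, chr3:137431207-137431213, plus strand: aagccagtagtAAAGGGAaagaaatcacc
Vegfc, chr8:54186664-54186670, plus strand: aaatctgaggaAAAGGGAaagagaaaaat
Angpt1, chr15:42426762-42426768, minus strand: aatcatgtttaAAAGGGAagaaacttctc
Flt1, chr5:147636273-147636279, minus strand: tagaatgtgctAAAGGGAgctagaaatgc
Aplnr, chr2:85137933-85137939, plus strand: tggtttagcggAAAGGGAtggagccttgc
The Flt1 match lies 74669 bases before the gene's annotated end, in the 3′ UTR of a shorter transcript, so it is not in every Flt1 transcript.

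The libraries held 6411538 to 8571737 counts. One column, taken here as KO-TAC replicate 3 by its library index, carries another number than its label does, and that number is the one in the label of WT-TAC replicate 3, a wild-type sample. Its library index is in the label of KO-TAC replicate 3 alone. Whether the column holds the sample it was assigned to cannot be settled from the labels, which touches every value of KO-TAC replicate 3. That library also stood apart in its cell markers: atrial markers summed to 441 CPM (counts per 1000000 counts of TMM-scaled library size, summed over the tested genes) there and to 3044 to 8791 CPM in the other libraries, and cardiomyocyte markers to 200400 CPM against 128100 to 162400. Nppa made up most of the atrial sum, at 311 CPM there and 2444 to 7904 CPM elsewhere. All 5 tested atrial markers were lowest there. Ttn gave 107600 CPM of the cardiomyocyte sum there, and only 4 of the 8 markers were highest there. Actc1, at 6307 CPM, was below every WT-TAC library. The results are therefore also given without KO-TAC replicate 3. Endothelial RNA was plain in every library, with Pecam1, Cdh5, Tie1, Kdr, Egfl7 and Esam summing to 702 to 896 CPM in WT-TAC and 826 to 1076 CPM in KO-TAC. Pericyte markers summed to 659 to 771 CPM in WT-TAC and 757 to 853 CPM in KO-TAC. The Mir204 gene was listed with 0 counts in all 6 libraries, so these counts cannot check the genotype labels. Its host gene Trpm3 had 63, 64 and 44 counts in WT-TAC and 57, 78 and 39 in KO-TAC. In RNA of bulk tissue, fewer cells of a type and less RNA per cell cannot be told apart.

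None of the 41 genes differed between the genotypes by edgeR's quasi-likelihood test. Each had an adjusted p of 0.9995, and over all 12487 tested genes 0.024% were called at an adjusted p under 0.05 (3 genes, either direction). At an unadjusted p under 0.05 there were 2 of the 41, Cldn5 and Kdr, both higher in KO-TAC (4.88%, against 1.36% of all tested genes in that direction). Every KO-TAC library lay above every WT-TAC library for 3 genes, Cldn5, Kdr and Vegfa. That is 7.32% of the 41, against 4.26% of all tested genes, a share not far from that background. For 0 of the 41 did every KO-TAC library lie below every WT-TAC library, against 3.72% of all tested genes. In sum 30 genes had a log2 fold change (KO-TAC over WT-TAC) above 0 and 11 below, with a median of 0.15, beside 50.2% above 0 and a median of 0.001 over all tested genes. Without KO-TAC replicate 1 only 22 of the 41 were above 0 and the median was 0.044, and without KO-TAC replicate 3 they were 31 and 0.25. The fold change's 95% interval, that of the edgeR test, lay within 0.5 to 2 for 26 of the 41.

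**Figure D1:**
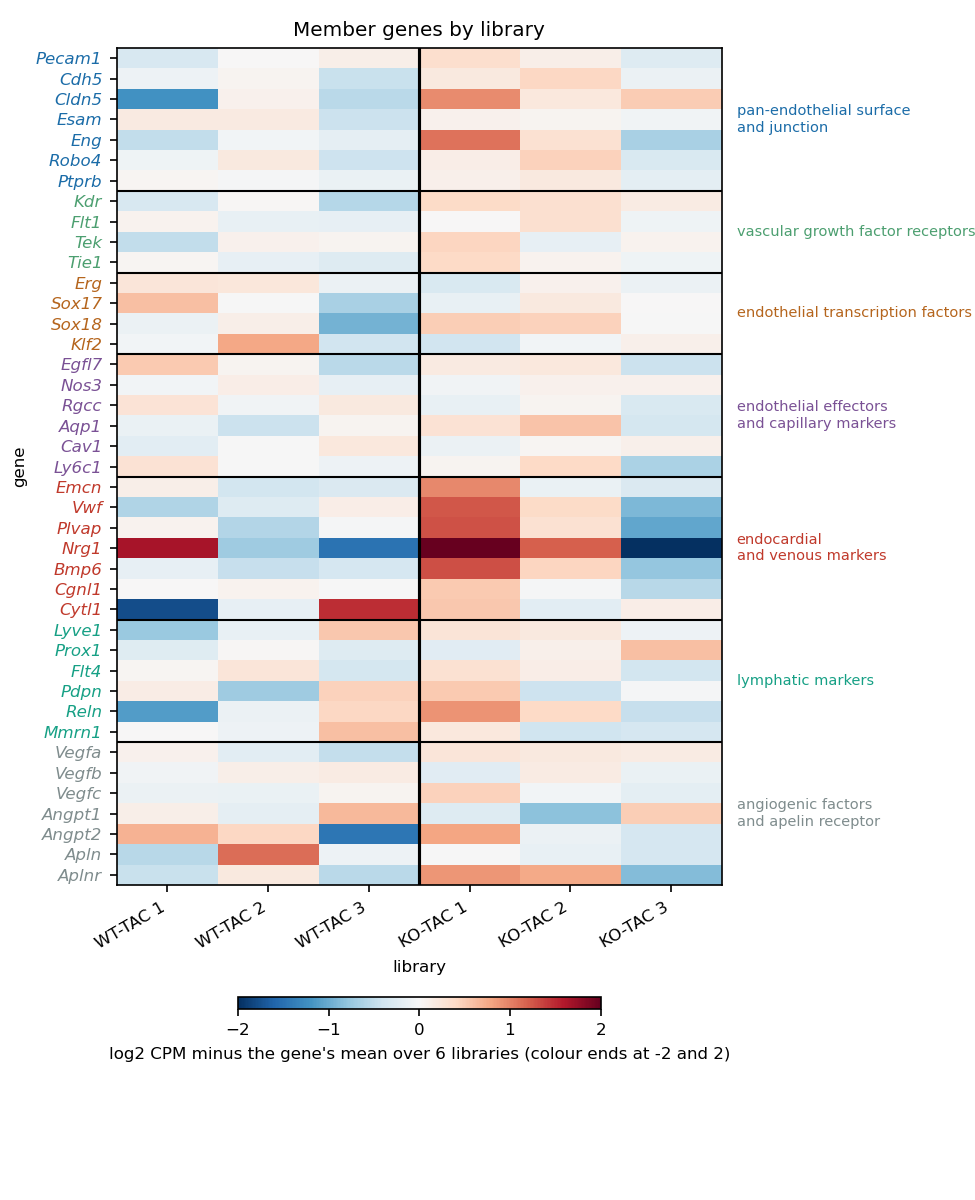
Level of each of the 41 genes (rows, grouped by class) in the 6 libraries (columns), as log2 CPM minus the gene's mean over the libraries; red is higher and blue lower, and colours end at −2 and 2. Most rows are pale, and the strongest colours are in the endocardial and venous block, where KO-TAC replicate 1 is red and KO-TAC replicate 3 blue for Vwf, Plvap, Nrg1 and Bmp6.

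Of the surface and junction genes shared by all blood endothelium, all 7 had values above 0 (median log2 fold change 0.21) and 0 passed the test. Cldn5, which encodes the tight junction protein claudin-5, lies on chromosome 16 from 18776847 to 18778262. It stood at 4.56, 11.3 and 7.26 CPM in WT-TAC replicates 1 to 3 and at 20.5, 12.3 and 15.1 CPM in KO-TAC. The groups do not overlap, but WT-TAC replicate 2 came close to KO-TAC replicate 2. The means were 7.69 ± 3.36 and 15.9 ± 4.16 CPM (SD, n = 3), and the log2 fold change in edgeR was 1.04 ± 0.37 (SE; adjusted p = 0.9995), which is 2.05-fold (95% interval 1.19 to 3.55). These levels rest on 29 to 140 counts per library.

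Eng, the TGF-beta co-receptor endoglin, stood at 128, 173 and 159 CPM in WT-TAC and at 380, 221 and 114 CPM in KO-TAC, the KO-TAC samples being both the highest and the lowest of all. Its log2 fold change was 0.64 ± 0.36. Cdh5, or VE-cadherin, the adhesive protein of endothelial junctions and a carrier of the seed match, had 216, 241 and 170 CPM in WT-TAC and 266, 309 and 213 CPM in KO-TAC, which overlap (0.33 ± 0.21). The other 4 genes had smaller values. Pecam1, an adhesion molecule, had a log2 fold change of 0.14 ± 0.20 and Robo4, a guidance receptor that steadies vessels, 0.21 ± 0.25. Ptprb, the phosphatase VE-PTP, had 0.08 ± 0.19 and Esam, a junctional adhesion molecule, 0.03 ± 0.21.

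The receptor genes were all 4 above 0 (median 0.24), with 0 past the test. Kdr, the main signalling receptor for VEGF-A, lies on chromosome 5 from 75932827 to 75978458. It had 182, 233 and 153 CPM in WT-TAC and 299, 286 and 256 CPM in KO-TAC, so the groups do not overlap and the KO-TAC samples lie close together. The means were 190 ± 40.3 and 280 ± 21.8 CPM (SD, n = 3). Its log2 fold change in edgeR was 0.56 ± 0.20 (SE; adjusted p = 0.9995), which is 1.48-fold (95% interval 1.10 to 1.99). With 1 library left out its log2 fold change ran from 0.43 to 0.74.

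Flt1, a VEGF receptor that also traps the ligand, had 180, 156 and 153 CPM in WT-TAC and 173, 216 and 162 CPM in KO-TAC (0.17 ± 0.18). Tek, the angiopoietin receptor Tie2, had 60.6, 90.4 and 88.1 CPM in WT-TAC and 114, 75.9 and 88.8 CPM in KO-TAC (0.22 ± 0.22). Tie1 had 85.6, 73.7 and 69.2 CPM against 109, 87.1 and 78.0 CPM (0.26 ± 0.19). The groups overlap for all 3 of these receptors. Per kilobase of annotated exon, Flt1 over Kdr was 0.66, 0.45 and 0.67 in WT-TAC and 0.39, 0.50 and 0.42 in KO-TAC, a ratio of levels within each library that also overlaps between the groups.

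**Figure D2:**
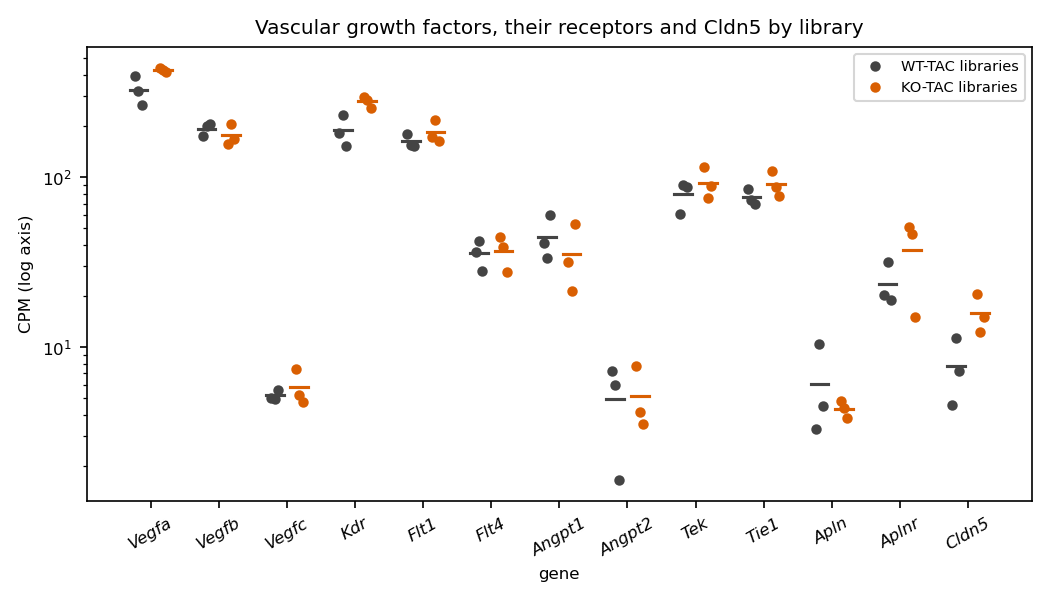
CPM on a log axis of the vascular growth factor genes, their receptors and Cldn5; each point is a library, grey for WT-TAC and orange for KO-TAC, and bars are group means (n = 3). For Vegfa, Kdr and Cldn5 the orange points lie above all grey ones, and for the other 10 genes the colours overlap.

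The ligands and the apelin receptor had a median of 0.055, with 4 of 7 above 0 and 0 past the test. That median was −0.059 without KO-TAC replicate 1, with 2 of 7 above 0, and −0.066 without WT-TAC replicate 3. Vegfa stood at 395, 321 and 266 CPM in WT-TAC and at 441, 427 and 415 CPM in KO-TAC. The groups do not overlap, and the KO-TAC samples are the tighter group (428 ± 13.5 against 327 ± 64.6 CPM; SD, n = 3). Its log2 fold change in edgeR was 0.39 ± 0.20 (SE; adjusted p = 0.9995), with a fold interval of 0.97 to 1.75. Vegfa lies on chromosome 17 from 46016993 to 46032369. Vegfb, a ligand of Flt1, had 174, 199 and 206 CPM in WT-TAC and 156, 205 and 168 CPM in KO-TAC (−0.13 ± 0.18). Vegfc, the lymphatic growth factor, was scarce, at 5.03, 4.94 and 5.62 CPM against 7.45, 5.23 and 4.73 CPM (0.16 ± 0.42). Per kilobase Vegfa over Vegfb was 0.85, 0.60 and 0.48 in WT-TAC and 1.06, 0.78 and 0.93 in KO-TAC, which overlap.

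The angiopoietins did not separate the groups. Angpt1, the Tek agonist that stabilises vessels, had 40.9, 33.3 and 59.6 CPM in WT-TAC and 31.6, 21.5 and 53.2 CPM in KO-TAC (−0.33 ± 0.32). Angpt2, its context-dependent antagonist, had 7.24, 5.97 and 1.64 CPM against 7.74, 4.13 and 3.55 CPM (0.05 ± 0.57). The fold interval of Angpt2, 0.45 to 2.42 spans large changes in both directions.

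The apelin pair pointed in opposite directions without passing. Apln, the peptide ligand, had 3.30, 10.4 and 4.52 CPM in WT-TAC and 4.82, 4.37 and 3.84 CPM in KO-TAC (−0.49 ± 0.50), a value that turns on WT-TAC replicate 2: without it the log2 fold change was 0.15. Aplnr, the apelin receptor of endothelium, had 20.3, 31.7 and 19.0 CPM in WT-TAC and 50.9, 46.5 and 15.1 CPM in KO-TAC (0.66 ± 0.40). KO-TAC holds both the highest sample and the lowest one.

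The transcription factors of endothelial identity had a median of −0.13, with 1 of 4 above 0. Leaving out WT-TAC replicate 1 turned it to 0.069, and leaving out WT-TAC replicate 2 to 0.021, with 2 of 4 above 0 each time, so its sign rests on single libraries. Sox18 was the one above, at 21.2, 25.1 and 12.1 CPM in WT-TAC and 32.4, 31.8 and 22.9 CPM in KO-TAC (0.58 ± 0.29). Those groups overlap, since WT-TAC replicate 2 is above KO-TAC replicate 3. Its relative Sox17, an arterial factor, had −0.04 ± 0.35. Erg, the ETS factor that keeps endothelial genes on, had −0.23 ± 0.22. Klf2, which responds to blood flow, had −0.30 ± 0.28, and without WT-TAC replicate 2, at 80.0 CPM the highest library, it was 0.12.

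The effector and capillary genes were split, 3 above and 3 below 0, with a median of −0.03 that ran from −0.086 to 0.078 with 1 library left out. Aqp1, a water channel abundant in capillaries, had 138, 113 and 157 CPM in WT-TAC and 186, 224 and 119 CPM in KO-TAC (0.38 ± 0.23). Cav1, the coat protein of caveolae, stood at 105 ± 15.7 CPM in WT-TAC and 105 ± 8.26 CPM in KO-TAC (SD, n = 3), with a fold interval of 0.77 to 1.32, and it carries the longer seed match. Nos3, endothelial nitric oxide synthase, had 0.06 ± 0.18, Egfl7, a secreted vessel factor, −0.06 ± 0.26, and Rgcc, a cell cycle regulator rich in capillaries, −0.26 ± 0.22. Ly6c1 had −0.06 ± 0.27. It has a near copy, Ly6c2, so its counts are uncertain. For all 6 genes of this class the interval lay within 0.5 to 2.

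**Figure D3:**
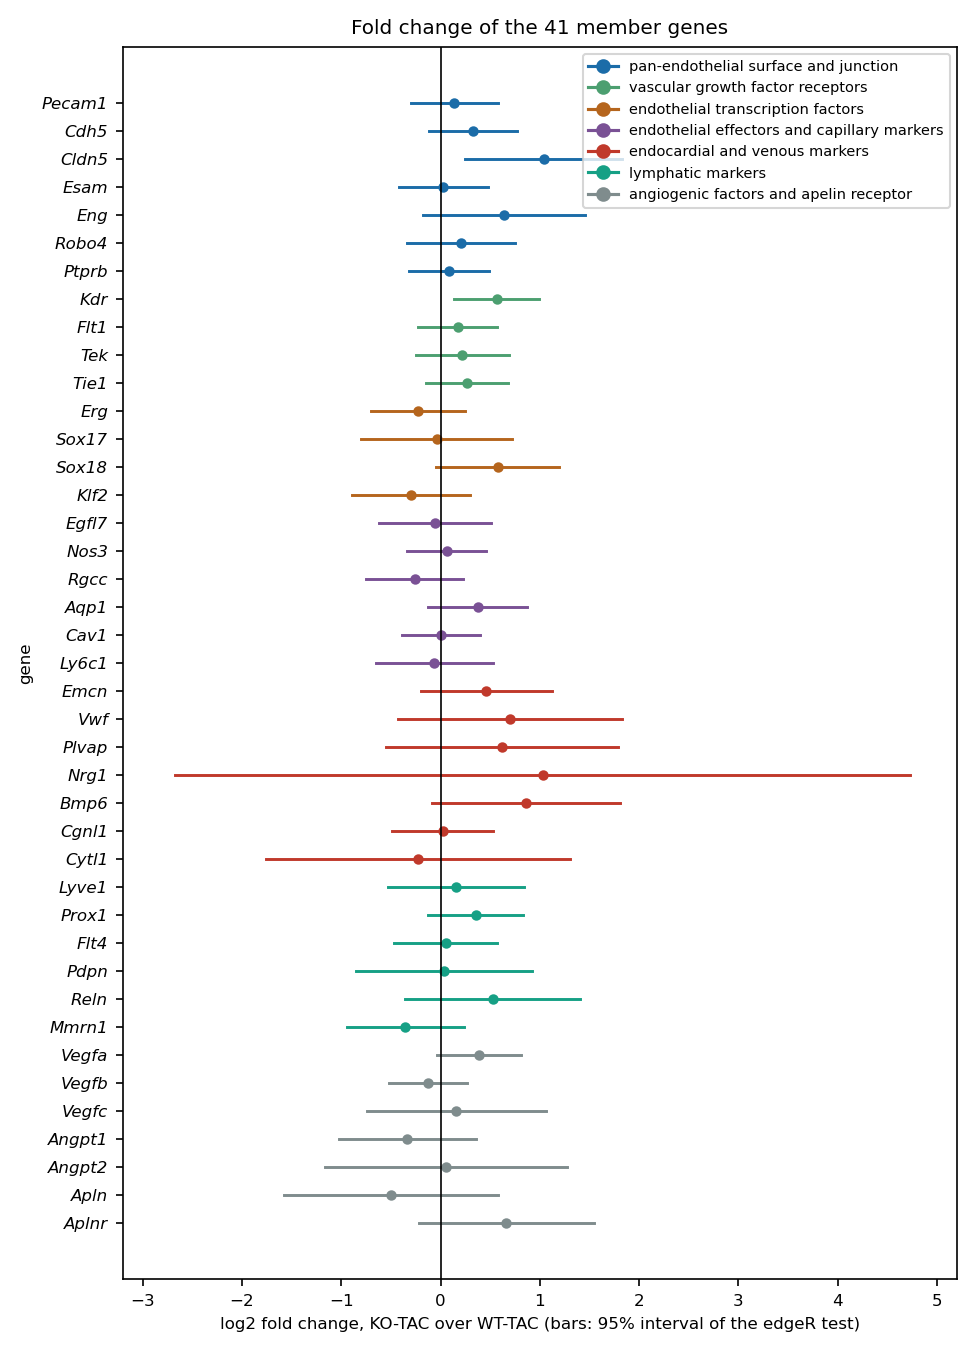
Log2 fold change of KO-TAC over WT-TAC for each of the 41 genes (points), with its 95% interval (bars), coloured by class. The bars of Cldn5 and Kdr alone stay above 0, and the widest bars are those of Nrg1 and Cytl1.

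Endocardial and venous markers had the highest median of the classes, 0.62, with 6 of 7 above 0 and 0 past the test. They also spread most within KO-TAC. Replicate 1 was the highest of all 6 libraries for 6 of the 7 genes, and replicate 3 the lowest for 5. Vwf, the clotting factor stored by endothelium and platelets, had 189, 239 and 315 CPM in WT-TAC and 680, 375 and 154 CPM in KO-TAC (0.70 ± 0.48). Bmp6, a ligand that endothelium secretes (chromosome 13 from 38345107 to 38500302), had 28.2, 22.8 and 24.9 CPM in WT-TAC and 76.9, 42.4 and 18.3 CPM in KO-TAC (0.86 ± 0.42). Plvap, which forms the diaphragms of fenestrae and caveolae, had 39.3, 25.1 and 36.8 CPM against 90.7, 46.2 and 18.3 CPM (0.62 ± 0.50). In these 3 genes, 2 KO-TAC samples exceed every WT-TAC sample and the third is below all of them. The class leaves out Nr2f2, which was listed with the atrial markers and pointed the other way. Nr2f2 had 45.0, 47.6 and 47.4 CPM in WT-TAC and 30.5, 28.2 and 26.15 CPM in KO-TAC (−0.72 ± 0.20; adjusted p = 0.9995 in edgeR). Its KO-TAC samples were all below every WT-TAC sample, as for 3.72% of all tested genes.

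Nrg1, the endocardial ligand of ErbB receptors on myocytes, varied most: 29.7, 5.85 and 3.42 CPM in WT-TAC and 56.0, 21.8 and 1.03 CPM in KO-TAC. Its counts ran from 7 to 383, and its fold interval of 0.16 to 26.6 allows no statement on direction. Emcn, endomucin, with the longer seed match, had 51.0, 36.4 and 38.6 CPM against 91.8, 43.0 and 38.7 CPM (0.46 ± 0.30), and only KO-TAC replicate 1 stood clear of the others. Cgnl1, a junction-associated protein, had 171, 179 and 169 CPM against 244, 167 and 117 CPM (0.02 ± 0.24). Cytl1, a small secreted protein, differed from the other 6 in having its highest and lowest samples both in WT-TAC, at 32.9 and 3.46 CPM, with KO-TAC between 10.2 and 17.1 CPM (−0.22 ± 0.67).

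**Figure D4:**
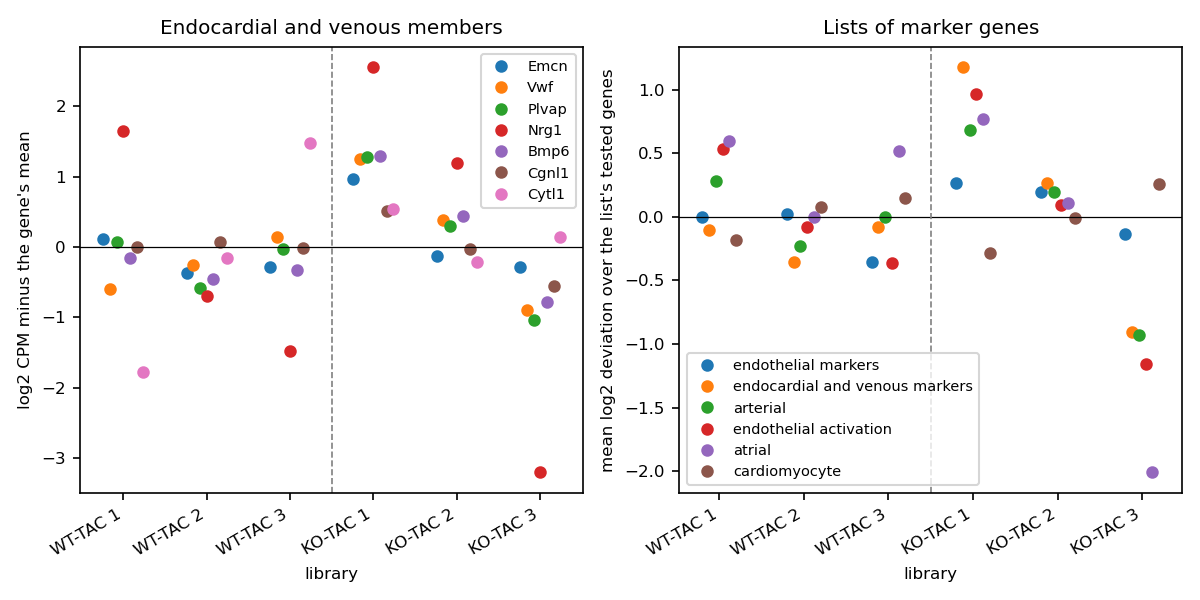
Left, log2 CPM of the 7 endocardial and venous genes minus each gene's mean, by library; right, the mean of the same deviation over 6 lists of marker genes. KO-TAC replicate 3 is lowest and KO-TAC replicate 1 highest for the endocardial and venous, arterial, activation and atrial lists, whereas cardiomyocyte markers are highest in KO-TAC replicate 3 and lowest in KO-TAC replicate 1.

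The median of the class depended on which KO-TAC sample was in it. Without KO-TAC replicate 1 it was −0.06, and without KO-TAC replicate 3 it was 1.02. Markers of other cells also differed between KO-TAC replicates 1 and 3, the cardiomyocyte markers in the opposite direction. The mean log2 deviation of the endocardial and venous genes was 1.18 in KO-TAC replicate 1 and −0.91 in replicate 3. That of 5 tested atrial markers was 0.77 and −2.01, and that of 8 cardiomyocyte markers −0.28 and 0.26. Fibroblast markers gave 0.55 and −0.53, and macrophage markers 0.51 and −0.36. Mesothelial markers gave 0.84 and −1.01, smooth muscle markers 0.18 and −1.49, and pericyte markers only 0.14 and −0.08. In WT-TAC replicates 1 to 3 the endocardial and venous genes gave −0.10, −0.36 and −0.08. Smooth muscle markers gave 0.56, 0.65 and 0.14 in the same samples. There mesothelial markers gave 0.02, −0.55 and 1.49, and atrial markers 0.60, 0.00 and 0.52. Smooth muscle, the other cell of the vessel wall, had 5 of 6 markers below 0 (median −0.73, 0 past the test). In 3 of the 6 every KO-TAC sample was below every WT-TAC sample, against 3.72% of all tested genes. None of the markers in these lists was at 0 in every library. The part of these markers in the endocardial values was not tested. For Vwf, which platelets also hold, platelet and megakaryocyte markers summed to 35.8 to 130 CPM in WT-TAC and 14.3 to 24.8 CPM in KO-TAC. In KO-TAC replicate 1, where Vwf was highest, they summed to 24.8 CPM. The part of platelets in the Vwf values was not tested.

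Lymphatic markers were above 0 for 5 of 6 genes (median 0.10), with 0 past the test. Without KO-TAC replicate 1 it was 3 of 6, with a median of −0.007. Prox1, the master regulator of lymphatic fate that cardiac myocytes also express, had 64.5, 78.0 and 63.7 CPM in WT-TAC and 65.5, 81.9 and 116 CPM in KO-TAC (0.35 ± 0.22). KO-TAC replicate 3 is the sample that stands out. The sum of cardiomyocyte markers was also highest there, though only 4 of the 8 markers were. The part of myocytes in the Prox1 values was not tested. Reln, reelin, had 7.24, 14.5 and 20.95 CPM against 29.4, 20.8 and 11.4 CPM (0.52 ± 0.41). Lyve1, a hyaluronan receptor also found on resident macrophages, had 0.15 ± 0.32 and Mmrn1, multimerin-1, −0.35 ± 0.27. Flt4, the VEGF-C receptor, had 36.5, 42.4 and 27.9 CPM in WT-TAC and 44.3, 38.9 and 27.6 CPM in KO-TAC (0.05 ± 0.24). Pdpn, podoplanin, which mesothelium also makes, stood at 7.73 ± 2.89 and 7.93 ± 2.65 CPM (SD, n = 3).

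Without KO-TAC replicate 3 more of the 41 genes stood apart, though none passed. At an unadjusted p under 0.05 there were then 12 genes higher in KO-TAC (29.3% of the 41, against 2.85% of all genes tested in that fit) and 1 lower, Angpt1. The 12 were Cdh5, Cldn5, Eng, Kdr, Sox18, Aqp1, Emcn, Vwf, Plvap, Bmp6, Reln and Aplnr. Bmp6 had the lowest adjusted p, 0.237 in edgeR, at a log2 fold change of 1.24, and Vwf, Eng and Aplnr followed at 1.09, 0.97 and 1.04 (adjusted p = 0.457 each). Without KO-TAC replicate 1 the log2 fold changes of the same 4 genes were 0.27 for Bmp6, 0.0957 for Vwf, 0.13 for Eng and 0.38 for Aplnr. Only 2 of the 41, Kdr and Prox1, were then under that unadjusted threshold. Over all genes it was 359 of the 12869 tested in that fit, in either direction. Cldn5 then had a log2 fold change of 0.82 and Kdr 0.52, and both had an adjusted p of 0.9999 in edgeR.

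Of the genes that carry the seed match, 7 of 10 had log2 fold changes above 0, with a median of 0.09. Over all 41 genes it was 30, with a median of 0.15, so the carriers did not stand above the rest. The medians were −0.02 over the 1992 tested genes with the match and 0.01 over the 9696 without it. The 4 genes with the longer match pointed both ways, Emcn at 0.46, Vegfc at 0.16 and Cav1 at 0.00, with Angpt1 at −0.33.

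The wider pathway, 97 tested genes on 8 lists, gave 63 above 0 and 34 below (median 0.12), with 0 past edgeR's test in either direction. Every KO-TAC sample lay above every WT-TAC sample for 3 of the 97, against 4.26% of all tested genes. It was the reverse for 2 of the 97, against 3.72% of all tested genes. VEGF and angiopoietin signalling had 7 of 12 above 0. In it Svep1, a matrix protein that can bind Tie receptors, had 82.1, 76.8 and 74.1 CPM in WT-TAC and 203, 139 and 74.5 CPM in KO-TAC (0.84 ± 0.29). Figf, which encodes VEGF-D, had 7.71, 9.87 and 10.6 CPM against 4.97, 4.74 and 5.91 CPM (−0.85 ± 0.36), with every KO-TAC sample below every WT-TAC sample. Among 7 capillary and lipid uptake genes 6 were above 0. Car4, the capillary carbonic anhydrase, had 4.72, 6.43 and 8.08 CPM against 13.7, 9.23 and 13.2 CPM (0.90 ± 0.35), with no overlap, and Gpihbp1, which anchors lipoprotein lipase, had 0.46 ± 0.28.

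Notch, ephrin and guidance genes had 10 of 16 above 0, with Rbpj, the Notch transcription factor, at −0.41 ± 0.25 and Efnb2, an arterial ephrin, at 0.36 ± 0.23. For Rbpj every KO-TAC sample was below every WT-TAC sample. Other angiogenic regulators had 13 of 21 above 0, with Pdgfb at 0.44 ± 0.27 and Ackr3 at 0.37 ± 0.28. Other endothelial identity genes also had 13 of 21 above 0, with Ecscr at 0.52 ± 0.33 and Cd93 at 0.30 ± 0.19. Hypoxia-responsive genes had 7 of 9 above 0, with Egln3, an oxygen-sensing hydroxylase, at 0.32 ± 0.20 and Ndrg1 at 0.30 ± 0.23. Arterial genes had 4 of 6 above 0, with Fbln5 at 0.43 ± 0.26 and Stmn2 at −0.73 ± 0.59. Endothelial activation genes had 3 of 5 above 0, with Icam1, a leukocyte adhesion molecule, at 0.90 ± 0.46 and Edn1, endothelin-1, at 0.63 ± 0.62. In the arterial and activation lists KO-TAC replicate 3 again had the lowest mean deviation, −0.93 and −1.16, and KO-TAC replicate 1 the highest, 0.69 and 0.97.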

How the data were processed

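RNA of 6 mouse heart samples was sequenced with paired ends, per the labels' protocols, which name a TruSeq RNA kit or a stranded mRNA kit, not saying which was used. The authors deposited raw counts per gene symbol, with no normalization. The builds mm10 and GRCm38 and the tools HISAT2 2.1.0, Subread, FastQC and edgeR are listed in the submitters' processing notes, with no role or order. Of the 41 genes, 9 share exon sequence with a gene on the opposite strand (Angpt1, Bmp6, Egfl7, Eng, Nos3, Nrg1, Prox1, Reln and Sox17). The use of strand in counting is not given, so whether reads of both were told apart is not known. Egfl7 also overlaps Gm20532 and Mir126a on its own strand.

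Counts were tested with edgeR 4.0.16 (R 4.3.3) on the whole table: filterByExpr with a minimum count of 10, TMM scaling, a robust quasi-likelihood fit of genotype, and Benjamini-Hochberg adjustment over 12487 genes. The 95% intervals come from the same test, and the standard error divides the size of the log2 fold change by √F. Totals of 6411538 to 8571737 counts and a common biological coefficient of variation of 0.286 set the precision. The fit was tested on simulated data. Alternatives were other scalings and filters, DESeq2 1.42.0, limma 3.58.1 voom, a replicate block, each library left out, and a threshold of 0.1. Positions, exon lengths and UTRs are from GENCODE M21 (GRCm38).

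The genes and lists were chosen with earlier results of these data known. All 41 are named. Values in every library are given for ligands and receptors, for the gene of smallest p in each class, for those with an unadjusted p under 0.05 or no overlap, and for some others chosen after their values were seen. Of each pathway list the 2 smallest p values are named. Nrp1 and Adgrf5 also had no overlap between the groups (KO-TAC above) and fall outside that rule. Of the listed pathway symbols, 5 older or newer synonyms were not in the table.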

Additional observations from a re-analysis of the deposited data

How the results depend on the processing

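In none of the settings tried, the 10 named below and each library left out in turn, did edgeR, DESeq2 or limma call any of the 41 genes or of the pathway genes. At an unadjusted p under 0.05 there were 2 to 13 of the 41. The count over all genes also moved, from 262 of 9618 with the stricter filter to 723 of 12948 without KO-TAC replicate 3. The latter is the setting with 13 of the 41. Over all genes 3 were called, with 21 when no filter was used, 17 by DESeq2, and 0 by limma-voom (376 at an unadjusted p under 0.05). Leaving out 1 library gave 0 to 7 calls: leaving out WT-TAC replicate 1 gave 0 (437 unadjusted), leaving out KO-TAC replicate 2 gave 7, and for KO-TAC replicate 3 it was 6. The cause was not tested. RLE, upper-quartile and no scaling, a stricter filter, limma-voom with quality weights and a threshold of 0.1 gave 2 to 4 calls.

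The labels give both groups the same replicate numbers. These numbers have no stated meaning, so they were not taken to pair the samples. Deviations of same-numbered samples correlated at 0.135, 0.011 and 0.257, the last, for replicate 3, being the highest of all pairs. Differently numbered samples ran from −0.223 to 0.146, and WT-TAC replicate 1 correlated best with KO-TAC replicate 2 (0.146). The replicate 3 columns of both groups also carry the same number, and why they correlate was not tested. With the replicate block 6 genes were called, 0 of them among the 41.

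Of 612 values of the 41 genes under the alternatives, 571 kept their direction. The log2 fold change of Sox17 turned to 0.068 in limma-voom, 0.148 with quality weights and 0.0301 with the block. That of Cytl1 turned to 0.224, 0.0264 and 0.167 in the same order. Cgnl1 turned to −0.0399 in limma-voom and −0.039 with the block. With quality weights Egfl7 turned to 0.125 and Ly6c1 to 0.0834. Cav1 turned to −0.0252 with no scaling, −0.00013 with the stricter filter and −0.0294 with quality weights.

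With 1 library left out, 19 genes changed direction at least once. The log2 fold change then ran from −0.00257 to 0.28 for Pecam1, −0.14 to 0.13 for Esam, −0.30 to 0.31 for Sox17, −0.52 to 0.12 for Klf2 and −0.29 to 0.22 for Egfl7. It ran from −0.00365 to 0.15 for Nos3, −0.0991 to 0.12 for Cav1, −0.31 to 0.17 for Ly6c1, −0.0353 to 0.68 for Emcn, −0.0588 to 1.02 for Plvap and −0.16 to 2.48 for Nrg1. For Cgnl1 it was −0.28 to 0.25, for Cytl1 −0.70 to 0.92, for Lyve1 −0.11 to 0.54, for Flt4 −0.0956 to 0.22 and for Pdpn −0.25 to 0.30. For Vegfc it was −0.0589 to 0.28, for Angpt2 −0.36 to 0.42 and for Apln −0.79 to 0.15. On the log2 scale the intervals of Nrg1, Cytl1, Angpt2, Plvap, Vwf and Apln were the widest, followed by those of Bmp6 and Vegfc. Each of these includes no change. Those of Nrg1, Cytl1, Angpt2 and Vegfc also include a change of 1.5-fold in both directions. Those of Plvap, Vwf and Bmp6 include it only upward, and that of Apln only downward. Wide intervals were not limited to these genes. What part depth has in the widths was not tested.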
